A study of Mus with 6 samples.

Results

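The liver clears ethanol in steps, and the transcripts of 10 enzymes of these steps were followed here in mice with and without Fabp4 under ethanol feeding. The members were taken by gene symbol as the alcohol dehydrogenases Adh1, Adh4 and Adh5, the cytochrome P450 Cyp2e1, catalase (Cat), the aldehyde dehydrogenases Aldh2, Aldh1a1, Aldh1b1 and Aldh3a2, and the acetyl-CoA synthetase Acss2. All 10 were found among the 48882 genes of the deposited expression table, and all 10 were abundant enough to test. The table covers 6 liver libraries in 2 groups of 3. The wild type group held wild type littermates, and the knockout group held mice labelled as FABP4 knock out (FABP4-/-). Both groups were fed ethanol in a Lieber-Decarli liquid diet for 8 weeks and were then given 1 ethanol binge, a regimen for alcoholic steatohepatitis (ASH), which is fatty liver with inflammation. Every mouse was thus exposed to ethanol, and no liver from an ethanol-free diet enters the comparison. The sources used here give neither the strain nor the age of the mice, nor how the allele was made. The protein made by Fabp4 carries fatty acids inside cells, chiefly adipocytes and macrophages. The comparison asks which enzymes of ethanol breakdown differed in transcript level when Fabp4 was missing.

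Ethanol is oxidized to acetaldehyde in the cytosol by alcohol dehydrogenase, which passes hydrogen to NAD+. A smaller part is oxidized in the endoplasmic reticulum by CYP2E1, which uses NADPH and oxygen, and in peroxisomes by catalase, which uses hydrogen peroxide. Acetaldehyde, the reactive product of all these routes, is oxidized to acetate chiefly by mitochondrial ALDH2, and acetate can be joined to coenzyme A by ACSS2. Ethanol is well known to raise CYP2E1, in large part by slowing the breakdown of the protein, so that the transcript need not follow the protein.

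Levels are in TPM, a unit in which read numbers are divided by transcript length and scaled to a common total. Fabp4 was at 14.7, 8.15 and 19.96 TPM across wild type libraries, in replicate order here and below, and had no value in any knockout library. Between 20664 and 21438 genes had a value in a library. TPM keeps no read depth, so the depth is unknown, and the errors given here come from the spread between libraries. Hepatocyte markers, 12 of 12 measured, summed to between 134128 and 146419 TPM in wild type and between 139804 and 142498 TPM in the knockout. Most of this sum was Alb, whose value of 98738 TPM was the same in all 6 libraries, as quantile normalization gives for the top gene. The other 11 markers summed to between 35390 and 47682 TPM in wild type and between 41067 and 43760 TPM in the knockout. Wild type replicate 2 lay apart from the others on the first principal component (-38.1, against -2.50 to 22.3), as did knockout replicate 1 on the second one (-30.8, against -5.92 to 21.8). In whole tissue, fewer cells of a type and less RNA per cell cannot be told apart.

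Of the 10 enzymes, Adh1 was the only one whose groups did not overlap, with higher values in the knockout, and no enzyme passed the test over all genes. The count past a Benjamini-Hochberg adjusted p of 0.05 in limma was 0 of 10, against 1 of 14155 genes tested (0.00706%), which was Fabp4. The count with an unadjusted p under 0.05 in limma was 1 of 10, against 8.03% of all genes (5.12% higher and 2.91% lower in the knockout, a split that came closer to even under other scalings, median scaling giving 565 higher and 530 lower genes and quantile normalization 570 and 537). Groups without overlap were found for 1 of 10, against 13.3% of all genes (8.94% higher and 4.38% lower in the knockout). These shares are close to the background, so the count says nothing about the enzymes as a set. The knockout mean was higher for 7 members and lower for 3, with a median log2 difference of 0.089, and it was higher for 57.4% of all genes tested, with a median of 0.038. All fold changes below are differences of log2(TPM + 1), knockout minus wild type.

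**Figure D1:**
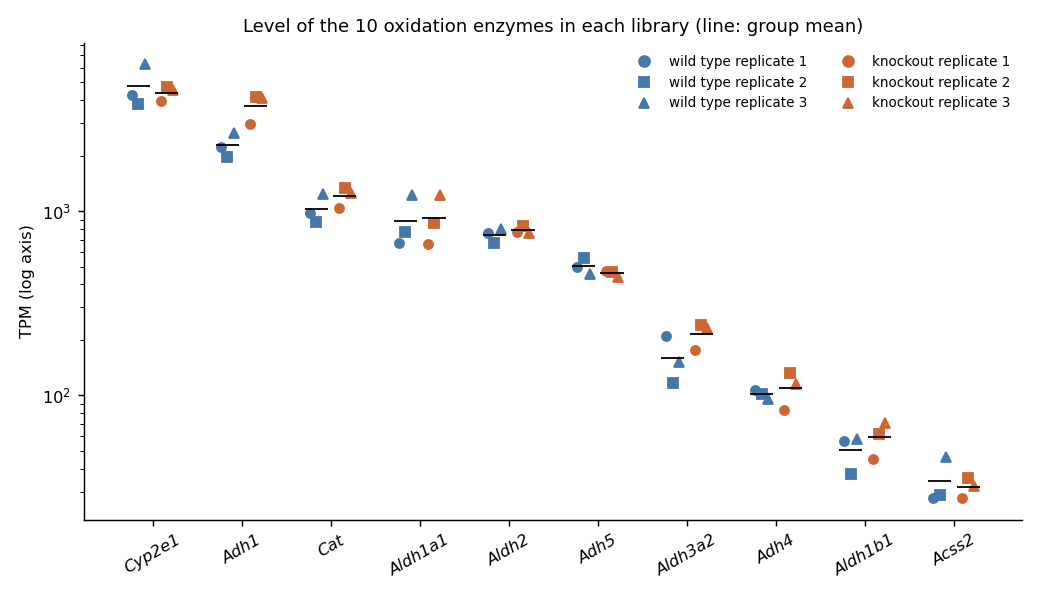
TPM of each enzyme on a log axis, with 1 point for each library (blue for wild type, orange for knockout, the marker giving the replicate) and a line at each group mean. The 3 knockout points of Adh1 lie above its 3 wild type points, and the groups of every other enzyme overlap.

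The enzymes covered a wide range of levels, and their order is given by the mean over the 6 libraries. Cyp2e1 was the highest at 4592 TPM, the 29th most abundant of the genes tested, and Adh1 followed at 3005 TPM as the 37th. Cat averaged 1118 TPM, Aldh1a1 900 TPM, Aldh2 764 TPM and Adh5 482 TPM. Below them came Aldh3a2 at 188 TPM, Adh4 at 106 TPM, Aldh1b1 at 54.97 TPM and Acss2 at 33.1 TPM. Neighbours in this order kept it in all 6 libraries, with the exception of Aldh1a1 and Aldh2, for which Aldh1a1 was the higher in 4 of 6. The ranges of Cyp2e1 and Adh1, of Cat and Aldh1a1, of Aldh3a2 and Adh4 and of Aldh1b1 and Acss2 also overlapped across libraries. Adh1 and Cat, Aldh2 and Adh5, Adh5 and Aldh3a2, and Adh4 and Aldh1b1 were separated by more than their spread. The transcripts of the main cytosolic and the main microsomal ethanol oxidizer thus stood above those of every aldehyde dehydrogenase in all libraries.

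Adh1 (mm10 chromosome 3, 138277645 to 138290691, plus strand) encodes the class I alcohol dehydrogenase, the main ethanol-oxidizing enzyme of the mouse liver. Its level was 2221, 1963 and 2647 TPM across wild type libraries. In the knockout libraries it was at 2953, 4156 and 4087 TPM. Each knockout library was above each wild type library, and the gap between the nearest libraries, wild type replicate 3 and knockout replicate 1, was small beside the distance between the means. The group means were 2277 ± 345 and 3732 ± 676 TPM (SD, n = 3 each), a ratio of 1.64. The log2 difference was 0.71 (SE 0.19, 95% interval 0.27 to 1.14), with a limma Benjamini-Hochberg adjusted p of 0.522. By unadjusted p, Adh1 stood 157th among the 14155 genes. An exact permutation test (two-sided) gave p = 0.1, which is as small as 3 against 3 libraries can reach. The log2 difference lay between 0.61 and 0.87 when any 1 library was left out, and the adjusted p lay between 0.348 and 0.989 over all alternatives. The difference was 0.77 without wild type replicate 2 and knockout replicate 1 together.

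Adh4 (mm10 chromosome 3, 138415497 to 138430892, plus strand), the class II enzyme, which takes part mainly at high ethanol concentrations, lies downstream of Adh1. It was at 107, 101 and 95.2 TPM across wild type libraries, against 83.2, 132 and 115 TPM in the knockout libraries. The wild type libraries lay within the knockout range. On the log2 scale the groups differed by 0.096 (SE 0.18, 95% interval -0.32 to 0.51; limma adjusted p 0.926), and its sign turned without knockout replicate 2 (-0.046).

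Adh5 (mm10 chromosome 3, 138437200 to 138455499, plus strand) encodes the class III enzyme, which clears formaldehyde bound to glutathione and is a poor ethanol oxidizer. It was at 499, 558 and 454 TPM across wild type libraries, against 471, 469 and 440 TPM in the knockout libraries. The knockout libraries were close to each other, and wild type replicate 3 lay among them. Knockout minus wild type came to -0.13 on the log2 scale (SE 0.12, 95% interval -0.42 to 0.16; limma adjusted p 0.838).

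The other alcohol dehydrogenase genes of the same stretch of chromosome 3 were low. Adh7, a class IV enzyme best known from the upper digestive tract, averaged 13.8 ± 1.92 TPM in wild type and 14.0 ± 2.19 TPM in the knockout (SD, n = 3 each; log2 difference 0.023, SE 0.16). Adh6b was at most 0.210 TPM in any library and Adh6a was listed without a value in all 6. Of the 4 genes of this stretch that could be tested, 1 had groups that did not overlap (Adh1), against 13.3% of all genes. Whether Adh1 differed from its neighbours was not tested on its own, and their ratios within each library are given after the single enzymes.

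Cyp2e1 (mm10 chromosome 7, 140763832 to 140774981, plus strand) encodes the microsomal ethanol oxidizer, which also releases reactive oxygen species. It was at 4285, 3834 and 6252 TPM across wild type libraries, against 3974, 4695 and 4511 TPM in the knockout libraries. Wild type replicate 3 was the highest and wild type replicate 2 the lowest of all 6 libraries, so that the knockout libraries lay within the wild type range. On the log2 scale the difference came to -0.096 (SE 0.20, 95% interval -0.57 to 0.37; limma adjusted p 0.940). Without wild type replicate 3 its sign turned (0.11).

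Cat (mm10 chromosome 2, 103453904 to 103485153, minus strand) encodes catalase, the peroxisomal enzyme that removes hydrogen peroxide and can oxidize ethanol with it. It was at 977, 868 and 1238 TPM across wild type libraries, against 1034, 1332 and 1259 TPM in the knockout libraries. Wild type replicate 3 was above knockout replicate 1 and below the other 2 knockout libraries. The groups differed by 0.24 on the log2 scale (SE 0.17, 95% interval -0.16 to 0.65; limma adjusted p 0.769).

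Summed over the 5 ethanol-oxidizing enzymes, the level was 8089, 7324 and 10686 TPM across wild type libraries, against 8516, 10784 and 10412 TPM in the knockout libraries. The sums overlapped, and wild type replicate 3 lay between the 2 highest knockout libraries. Shares of this sum were computed for Adh1 and Cyp2e1 only, without a background from other genes, and neither overlapped between groups. The shares of Adh4, Adh5 and Cat were not computed. Adh1 made up 27.5%, 26.8% and 24.8% of it in wild type and 34.7%, 38.5% and 39.3% in the knockout. Cyp2e1 made up 52.97%, 52.3% and 58.5% in wild type and 46.7%, 43.5% and 43.3% in the knockout. The shares of 1 sum are not independent, since a higher share of one enzyme leaves less for the rest. This does not mean that the share of each other enzyme fell. They are shares of transcripts, not of enzyme activity.

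**Figure D2:**
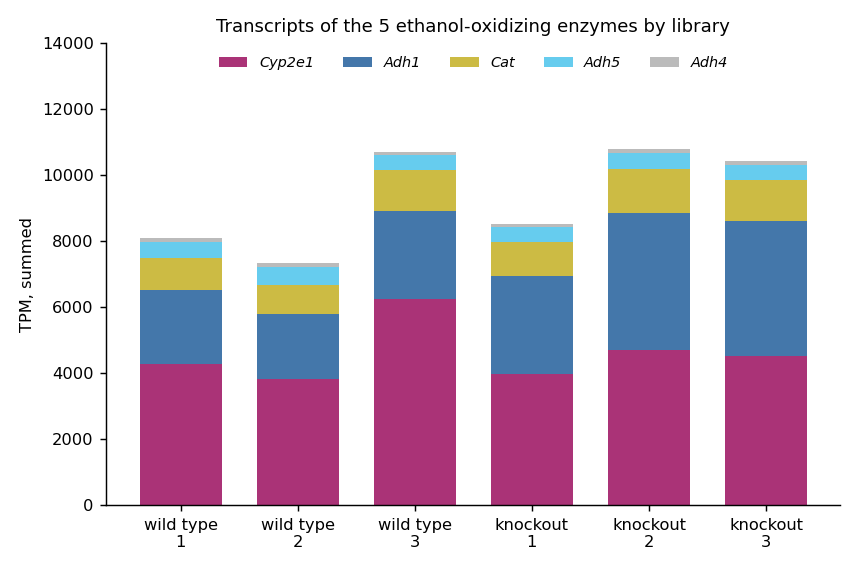
Stacked bars of TPM for the 5 ethanol-oxidizing enzymes, 1 bar for each library, starting at 0. The bar height overlaps between groups, while the Adh1 segment (blue) is taller in each knockout bar, at 2953 to 4156 TPM, than in any wild type bar, at 1963 to 2647 TPM.

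Aldh2 (mm10 chromosome 5, 121566027 to 121593824, minus strand) encodes the mitochondrial enzyme that removes most acetaldehyde. It was at 761, 670 and 798 TPM across wild type libraries, against 766, 834 and 756 TPM in the knockout libraries. It was the steadiest member, with the highest library 1.25 times the lowest. Between groups the log2 difference was 0.083 (SE 0.13, 95% interval -0.21 to 0.37; limma adjusted p 0.899). The interval leaves out a change as large as that measured for Adh1, in either direction. It overlaps the interval of Adh1 (0.27 to 1.14), and Aldh2 was not tested against Adh1.

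Aldh1b1 (mm10 chromosome 4, 45799022 to 45804608, plus strand) encodes a mitochondrial relative of Aldh2 that also accepts acetaldehyde. It was at 56.6, 37.3 and 58.2 TPM across wild type libraries, against 45.2, 61.6 and 71.0 TPM in the knockout libraries. Wild type replicate 2 was the lowest library, and without it the log2 difference of 0.22 (SE 0.23, 95% interval -0.30 to 0.75; limma adjusted p 0.841) was 0.022.

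Aldh1a1 (mm10 chromosome 19, 20601982 to 20643462, plus strand) encodes a cytosolic enzyme that oxidizes acetaldehyde and retinaldehyde. It was at 670, 766 and 1222 TPM across wild type libraries, against 661, 860 and 1219 TPM in the knockout libraries. It varied more within each group than any other member in relative terms, with an SD of 33.3% of the mean in wild type and 30.9% in the knockout, and replicate 3 was the highest of both groups. Between the means the log2 difference was 0.048 (SE 0.29, 95% interval -0.62 to 0.71; limma adjusted p 0.979). Its sign turned when wild type replicate 1 (-0.13) or 2 (-0.032) was left out, and also without knockout replicate 3 (-0.18). The neighbouring Aldh1a7 is a close copy that can share reads with it, so that both levels are uncertain. Aldh1a7 averaged 122 ± 7.32 and 126 ± 32.3 TPM (SD, n = 3 each).

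Aldh3a2 (mm10 chromosome 11, 61224486 to 61267523, minus strand) encodes the fatty aldehyde dehydrogenase of the endoplasmic reticulum, which handles long-chain aldehydes, including those from lipid peroxidation, more than acetaldehyde. It was at 211, 116 and 152 TPM across wild type libraries, against 177, 241 and 231 TPM in the knockout libraries. Wild type replicate 1 lay above knockout replicate 1, and the other 2 wild type libraries lay below all 3 knockout libraries. The log2 difference was 0.46 (SE 0.23, 95% interval -0.070 to 0.99; limma adjusted p 0.683), the second largest of the 10. It was 0.68 without wild type replicate 1 and 0.26 without wild type replicate 2.

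Summed over the 4 aldehyde dehydrogenases, the level was 1698, 1589 and 2231 TPM across wild type libraries, against 1649, 1997 and 2277 TPM in the knockout libraries. The lowest and highest libraries of the groups were close to each other. The means were 1839 ± 343 and 1974 ± 315 TPM (SD, n = 3 each), less apart than the libraries of either group.

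Acss2 (mm10 chromosome 2, 155517953 to 155562746, plus strand) encodes the cytosolic and nuclear enzyme that makes acetyl-CoA from acetate, and is a known target of the SREBP transcription factors of lipid synthesis. It was at 27.8, 28.7 and 46.0 TPM across wild type libraries, against 27.8, 35.7 and 32.4 TPM in the knockout libraries. Wild type replicate 3 stood above the other 5 libraries, as it did for Cyp2e1. This gave a log2 difference of -0.063 (SE 0.21, 95% interval -0.55 to 0.42; limma adjusted p 0.965). Its sign turned without wild type replicate 3 (0.17) or knockout replicate 1 (0.031).

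**Figure D3:**
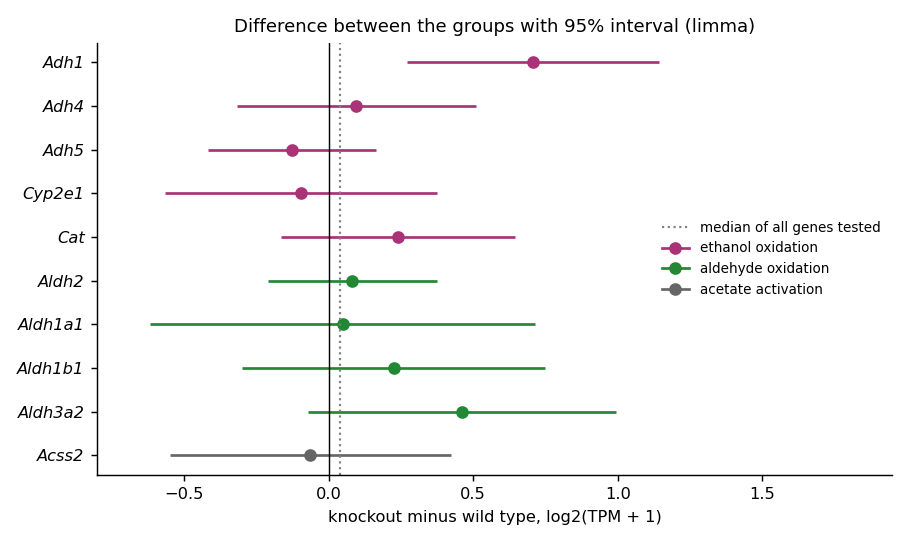
Log2 difference of each enzyme, knockout minus wild type, with its 95% interval from limma, coloured by step. The interval of Adh1 runs from 0.27 to 1.14, the other 9 intervals include 0, and the dotted line marks the median of all genes tested at 0.038.

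A ratio of 2 genes within a library is free of a single scaling factor for that library, but not of the quantile normalization that the deposited values appear to have gone through. The ratio of Adh1 to another enzyme was set side by side for all 9 partners. It was higher in each knockout library than in any wild type library for 8 of the 9, all but Aldh3a2. Against all 13816 other tested genes with a value in every library, the same held for 42.9%. The ratios share the values of Adh1 and are a description of that gene, not 9 separate results. The ratio of Adh1 to Cyp2e1 was 0.518, 0.512 and 0.423 in wild type and 0.743, 0.885 and 0.906 in the knockout. Cyp2e1 transcripts remained the more abundant in every library, by the smallest margin in knockout replicate 3.

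The ratio of Adh1 to Adh5 was 4.45, 3.52 and 5.83 in wild type and 6.27, 8.86 and 9.29 in the knockout. Relative to Adh4, Adh1 was at a ratio of 20.7, 19.4 and 27.8 in wild type and of 35.5, 31.5 and 35.5 in the knockout. Both ratios compare neighbours of 1 gene cluster, and in both every knockout library was the higher. Adh1 over Aldh2, the first enzyme of the pathway against the second, was 2.92, 2.93 and 3.32 in wild type and 3.85, 4.98 and 5.40 in the knockout. Adh1 over Cat was 2.27, 2.26 and 2.14 in wild type and 2.86, 3.12 and 3.25 in the knockout. The ratio of Adh1 to Aldh3a2 was 10.5, 16.9 and 17.4 in wild type and 16.7, 17.3 and 17.7 in the knockout, and its groups overlapped.

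Among the 36 pairs without Adh1, the ratio did not overlap between groups for 2, against 8.52% of the ratios of these 9 enzymes to all other such genes. The ratio of Cyp2e1 to Cat was 4.39, 4.42 and 5.05 in wild type and 3.84, 3.53 and 3.58 in the knockout. The ratio of Cat to Acss2 was 35.2, 30.3 and 26.9 in wild type and 37.2, 37.3 and 38.9 in the knockout. Both pairs were singled out after their values were seen.

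**Figure D4:**
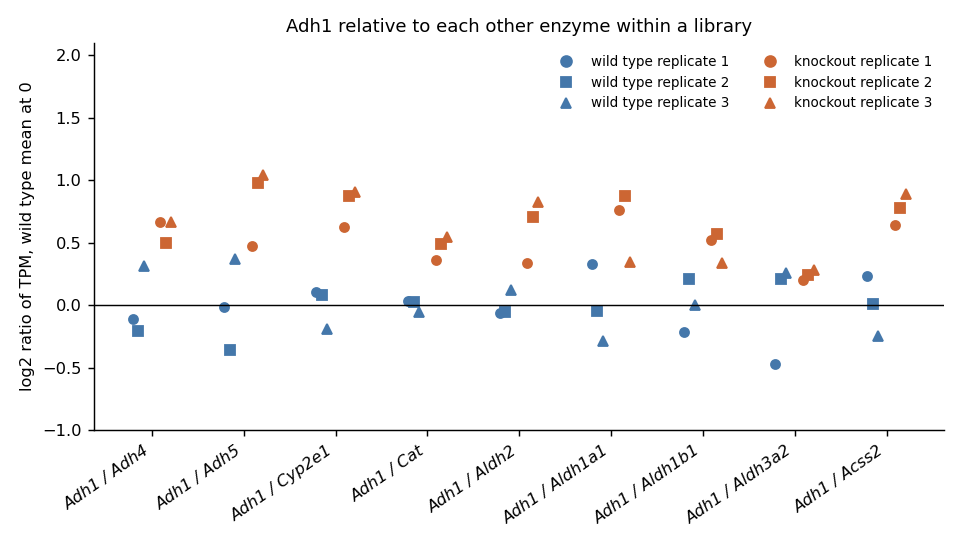
Log2 ratio of Adh1 TPM to the TPM of each other enzyme in the same library, shifted so that the wild type mean of each ratio is at 0, with 1 point for each library. Knockout points (orange) lie above all wild type points (blue) for 8 of 9 partners, and the groups overlap for Aldh3a2.

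For the 3 members with the smallest p, the 2 genes with the most similar course over the 6 libraries were looked up among 5611 genes of at least 10 TPM. The likeness is Pearson's r over 6 libraries, the largest found among all of them, and is given as a description that includes the difference between groups. Nearest to Adh1 were the ephrin receptor Ephb4 (r = 0.991) and the phosphodiesterase Pde8a (r = 0.988). Nearest to Aldh3a2 were Pdlim5 (r = 0.994) and Mdfic (r = 0.991). Nearest to Cat were the aldo-keto reductase Akr1c14 (r = 0.984) and Rbpms2 (r = 0.982).

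The genes around the pathway were followed in 9 further lists, and none of their members passed the limma test over all genes. Of the other alcohol and aldehyde dehydrogenases, 17 of 22 were abundant enough to test, 7 with a higher and 10 with a lower knockout mean (median log2 difference -0.026, against 0.038 for all genes). The groups did not overlap for 2 of the 17, against 13.3% of all genes. The aldehyde reductase gene Akr1a1 was at 341, 356 and 351 TPM across wild type libraries, against 371, 420 and 384 TPM in the knockout libraries (log2 0.16, SE 0.11). Aldh9a1, the other gene without overlap, had a log2 difference of -0.15 and was named after its values were seen. The smallest p-values of the list belonged to Aldh3b1 (0.46, SE 0.22) and Adhfe1 (-0.28, SE 0.14), whose groups overlapped, as did those of Aldh8a1 (0.21, SE 0.13).

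Genes of acetate and acetyl-CoA handling, with deacetylase and carrier genes among them, were tested for 12 of 13 members, 8 higher and 4 lower (median 0.070). An unadjusted p under 0.05 in limma was found for 2 of the 12, against 8.03% of all genes. Each other pathway list had at most 1 such gene. The groups did not overlap for 3 of the 12, against 13.3% of all genes. Acat2, a cytosolic thiolase that joins acetyl-CoA units, was at 19.98, 20.03 and 26.7 TPM across wild type libraries, against 30.4, 32.97 and 33.2 TPM in the knockout libraries (log2 0.52, SE 0.15; limma adjusted p 0.522). Acacb, the acetyl-CoA carboxylase of the mitochondrial surface that restrains fatty acid oxidation, was at 19.5, 12.9 and 18.2 TPM across wild type libraries, against 10.9, 12.2 and 8.32 TPM in the knockout libraries (log2 -0.63, SE 0.20; limma adjusted p 0.536). Both were among the genes without overlap, and they differed in opposite directions. Sirt3, a mitochondrial deacetylase, had a log2 difference of 0.22 (SE 0.12), also without overlap, and Slc25a1, the citrate carrier, had one of 0.22 (SE 0.15). Acss1, which activates acetate inside mitochondria, fell under the abundance limit of a mean of 0.5 TPM.

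The microsomal list of electron donors and other P450s that oxidize some ethanol also held genes outside these classes. It had 8 members tested, 4 higher and 4 lower (median -0.055), and 2 of the 8 had groups without overlap, against 13.3% of all genes. Cyp3a11 was at 3909, 5398 and 4112 TPM across wild type libraries, against 5518, 7386 and 6187 TPM in the knockout libraries (log2 0.51, SE 0.18; limma adjusted p 0.564). Its lowest knockout library lay just above its highest wild type library. Cyp3a13 (-0.62, SE 0.29), Cyb5b (0.37, SE 0.19) and Cyp1a2 (-0.43, SE 0.28) overlapped between groups. Of these, Cyb5b encodes a mitochondrial form of cytochrome b5. Cyb5a, the cytochrome b5 gene, had groups without overlap (log2 -0.21) and was named after its values were seen.

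Peroxisomal sources of hydrogen peroxide, which catalase needs to oxidize ethanol, were tested with the catalase import genes for 10 of 11 members, 9 higher and 1 lower (median 0.12). The hydroxyacid oxidase Hao2 was at 45.4, 39.6 and 41.0 TPM across wild type libraries, against 64.4, 58.5 and 47.6 TPM in the knockout libraries (log2 0.42, SE 0.14; limma adjusted p 0.564). Hao1, the glycolate oxidase, had a log2 difference of 0.45 (SE 0.21). The groups of these 2 genes did not overlap, against 13.3% of all genes. Acox2, the one member with a lower knockout mean, had a difference of -0.22 (SE 0.16), and Pex5, the receptor that brings catalase into peroxisomes, had one of 0.15 (SE 0.12).

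The list for reoxidation of cytosolic NADH, the second product of alcohol dehydrogenase, also held shuttle genes and Nnt, a mitochondrial transhydrogenase gene. It had 12 of 12 members tested, 8 higher and 4 lower (median 0.14), and no member without overlap. Slc25a11, a carrier of the malate-aspartate shuttle, had a log2 difference of 0.29 (SE 0.14), Nnt one of 0.22 (SE 0.13), Gpd1 one of 0.25 (SE 0.17) and Ldha one of -0.22 (SE 0.19). Genes of non-oxidative ethanol conjugation had 9 of 9 members tested, 6 higher and 3 lower (median 0.081), also with no member without overlap. The carboxylesterase genes Ces1f (0.66, SE 0.29) and Ces1d (0.50, SE 0.29) had the smallest p-values, followed by Ces1g (-0.26, SE 0.19) and the phospholipase Pld2 (0.17, SE 0.15).

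Cyp2e1 is a textbook pericentral gene, expressed around the central vein, and genes of both lobule zones were therefore read beside it. Pericentral genes were higher for 5 and lower for 10 of 15 (median -0.10), and periportal genes were higher for 9 and lower for 3 of 12 (median 0.18). The groups did not overlap for 1 of the 15 pericentral and 0 of the 12 periportal genes, against 13.3% of all genes. This gene was the ammonia transporter Rhbg, at 12.7, 10.6 and 21.5 TPM across wild type libraries, against 7.60, 8.71 and 8.33 TPM in the knockout (log2 -0.73, SE 0.24; limma adjusted p 0.542). Slc1a2 (-0.31, SE 0.19) and Cyp1a2 overlapped. So did Ctnnb1 (0.15, SE 0.12), the beta-catenin gene, which is counted in the pericentral list as a regulator and is not itself a zone marker. Of the periportal genes, Sds (-0.39, SE 0.25), Sdhd (0.18, SE 0.12), Pigr (0.22, SE 0.21) and Hsd17b13 (0.12, SE 0.11) had the smallest p-values.

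SREBP targets, the lipid synthesis genes that are controlled like Acss2, were higher for 10 and lower for 8 of 18 (median 0.0042). Sqle, of cholesterol synthesis, was at 6.40, 30.96 and 16.8 TPM across wild type libraries, against 7.33, 4.54 and 5.49 TPM in the knockout libraries (log2 -1.27, SE 0.47; limma adjusted p 0.579). Fasn, the fatty acid synthase gene, was at 28.2, 26.6 and 137 TPM across wild type libraries, against 67.4, 110 and 150 TPM in the knockout libraries (log2 1.12, SE 0.61; limma adjusted p 0.700). Wild type replicate 3, the library with the highest Acss2, had the highest Fasn of the wild type group. Over both groups Fasn was highest in knockout replicate 3, where Acss2 was at 32.4 TPM. Hmgcs1 (-0.38, SE 0.18) and Srebf2 (-0.26, SE 0.12) were the other 2 with the smallest p-values, and Srebf2 was the 1 gene of the 18 whose groups did not overlap, against 13.3% of all genes.

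**Figure D5:**
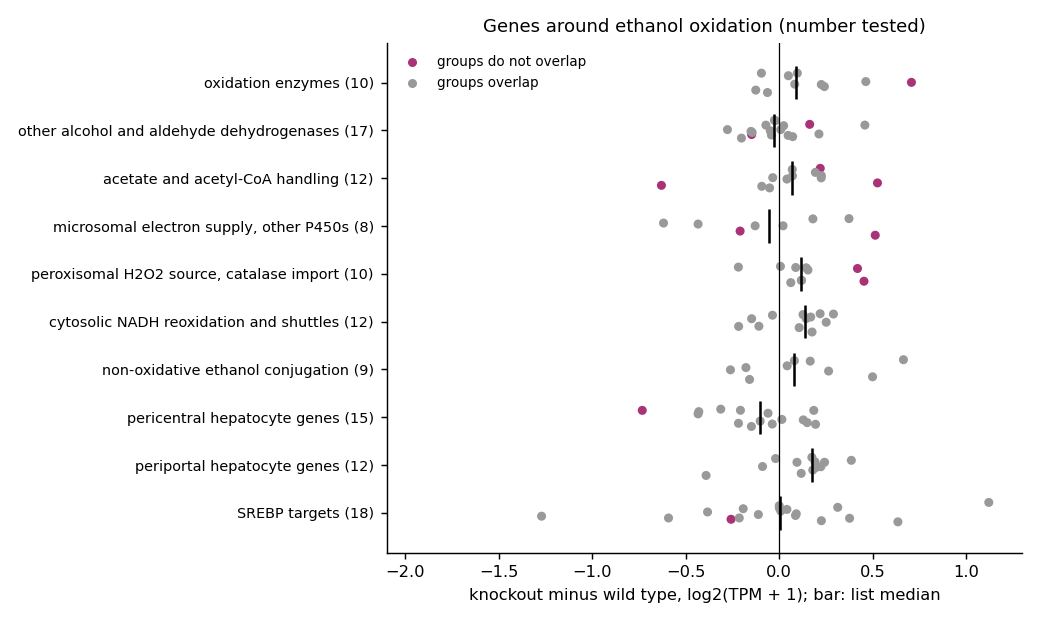
Log2 difference, knockout minus wild type, of every tested gene among the 10 oxidation enzymes and the 9 pathway lists, with a bar at the list median and genes whose groups do not overlap in purple. The medians of these lists lie between -0.10 and 0.18, and Adh1, at 0.71, is the rightmost purple point among them.

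Markers of several other liver cell types also had higher means in the knockout, the group with the higher Adh1, and none of them passed the limma test over all genes. Endothelial markers were higher in the knockout for 8 of 8, with summed levels of 136 to 176 TPM in wild type and 199 to 235 TPM in the knockout. Macrophage markers were higher for 8 of 8, with sums of 135 to 355 and 241 to 633 TPM, and stellate cell and fibroblast markers for 8 of 8, with sums of 247 to 305 and 289 to 365 TPM. Cholangiocyte markers were higher for 5 of 5 tested, with sums of 45.5 to 80.7 and 49.0 to 75.7 TPM. Lymphocyte markers were higher for 4 of 5 tested, with sums of 4.76 to 8.76 and 6.42 to 9.94 TPM. Neutrophil markers were lower for 3 of 3 tested, with sums of 20.1 to 49.3 and 14.7 to 20.1 TPM, and Camp was listed without a value in all libraries. Hepatocyte markers were higher for 6 of 12 and lower for the rest but Alb, whose value was the same in all libraries. The groups did not overlap for 7 of 8 endothelial, 2 of 8 macrophage and 2 of 8 stellate cell and fibroblast markers. The same held for 2 of 5 lymphocyte markers, and all of these were higher in the knockout. Lower without overlap were 1 of 3 neutrophil and 1 of 12 hepatocyte markers, and the cholangiocyte markers tested all overlapped. The share over all genes was 13.3% for groups without overlap and 57.4% for a higher knockout mean. The part of cell composition in the difference of Adh1 was not tested.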

How the data were processed

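Liver RNA was extracted with TRIzol and sequenced on a HiSeq instrument, per the labels' protocols. FastQC, Trimmomatic and the build mm10 are named in the submitters' processing notes, while the aligner, quantification, annotation and strandedness were not given in the sources used here. Per the file headers the deposited columns are TPM, but they hold log2 values (from -8.88 to 16.6, library medians 1.07). The 6 columns have nearly the same distribution, as quantile normalization leaves it, so a shift of all genes cannot be seen. Values were back-transformed to TPM, blanks were taken as 0, and genes with a mean of at least 0.5 TPM were tested on log2(TPM + 1), a pseudocount that understates changes of low genes.

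With R 4.3.3, limma 3.58.1 (two-sided, moderated with trend, Benjamini-Hochberg over 14155 genes, threshold 0.05) compared 3 knockout with 3 wild type libraries. The labels do not state that replicates are separate mice, so a p-value reflects only how these libraries vary, which may be technical. Alternatives covered pseudocount, filter, scaling, trend, replicate number and leaving out libraries, including 1 pair chosen after seeing the data. Members and lists were chosen with earlier results of these data known. Named were all members, up to 4 genes of each pathway list by smallest p, and the 2 genes most alike for each of 3 members. 1 gene of a pathway list is not reported here. Of 183 listed genes, 182 matched by symbol and 1 by its RefSeq gene number. The comparison of knockout with wild type was simulated in 20 sets, over 14155 genes. In these sets limma recovered 8.30% of log2 changes of 0.5, 65.1% of log2 changes of 1 and 92.8% of log2 changes of 2. False calls in them came to 142 in total. The rates apply to the simulated sets and need not hold for the measured data, in which 1 of 14155 genes passed. SE is the standard error and SD the standard deviation.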

Additional observations from a re-analysis of the deposited data

How the results depend on the processing

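No enzyme passed the threshold under any of the 15 alternatives. Adh1, Adh5, Cat, Aldh2, Aldh1b1 and Aldh3a2 kept their direction in all of them. The sign turned only in fits that left out 1 library, in which the log2 difference ranged from -0.18 to 0.31 for Aldh1a1, from -0.24 to 0.11 for Cyp2e1, from -0.19 to 0.17 for Acss2 and from -0.046 to 0.28 for Adh4. The median of the 10 ranged from 0.016 to 0.27 in these fits, the highest without knockout replicate 1. The number of genes called over the whole table was 1, and it was 0 with a pseudocount of 5, with no filter and under the replicate block. It ranged from 0 to 6 when 1 library was left out (0 without wild type replicate 1 or knockout replicate 2, 4 without knockout replicate 3, 6 without wild type replicate 3) and was 3 without wild type replicate 2 and knockout replicate 1. At an unadjusted p under 0.05 in limma, 725 genes were higher and 412 lower, against 565 and 530 after median scaling and 570 and 537 after quantile normalization. Equal replicate numbers did not pair the libraries (correlations of their deviations -0.26, -0.27 and -0.049, with 0 of 6 libraries closest to its own number), and with the block the log2 difference of Adh1 was 0.71 (SE 0.19, limma adjusted p 0.822). The read depth is unknown, and in data simulated with this number of libraries limma recovered 8.30% of log2 changes of 0.5 and 65.1% of log2 changes of 1. These rates apply to the simulated sets and need not hold for the measured data.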
